A study of Homo sapiens with 4 samples.

Results

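The islet hormone and secretory granule genes are INS, GCG, SST, PPY, IAPP, GHRL, CHGA, CHGB, PCSK1 and PCSK2, and their chromatin was examined in 4 ATAC-seq libraries of human pancreatic progenitors. ATAC-seq uses the Tn5 transposase to cut open DNA, so that places with many reads, called peaks, are accessible. Peaks of the 4 lists were merged where they shared at least 1 bp, and the members were all merged regions that overlapped the body of a listed gene (GENCODE release 44) or the 20 kb on either side of it. There were 50 such regions of 164301 in the genome, and each of the 10 genes had between 2 and 15 of them. The rule used gene names, gene positions and the called peaks, and no fold or rank values. The gene list was chosen with earlier results of these data known.

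The cells were pancreatic progenitors (PPs) derived from MEL1, an established human embryonic stem cell line. Both groups grew in EF6 medium, which contains B27, EGF, bFGF and 616452 (a TGFβ inhibitor), and received either DMSO or 1 μM I-BET151 for 7 days. I-BET151 inhibits the BET family of bromodomain proteins, which read acetylated lysines on histones. There were 2 libraries per group, each from 50000 cells, and no label says whether the replicates were separate cultures, so their spread may be technical. The methods of the study name a MEL1 line with GFP inserted at an INS allele, and the inserted sequence is not part of the hg38 genome used for the peaks. All cells came from 1 line and an accessible region is not a measure of expression.

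Each islet hormone marks an endocrine cell type. Insulin and islet amyloid polypeptide (IAPP) are made in β cells, glucagon (GCG) in α cells and somatostatin (SST) in δ cells. Pancreatic polypeptide (PPY) is made in γ cells and ghrelin (GHRL) in ε cells. The hormones are stored in dense-core secretory granules, whose matrix contains the chromogranins CHGA and CHGB. The prohormone convertases PCSK1 and PCSK2 cut the hormone precursors inside these granules. PPs are the stage before endocrine commitment, when these genes are largely not yet in use.

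The sequences below are those that the results turn on, read from hg38 on the strand of the gene and written 5′ to 3′. Capitals mark exact matches on either strand to short consensus words. The cyclic AMP response element (CRE) was searched as TGACGTCA, the forkhead word of FOXA proteins as TGTTTAC and the GATA factor word as AGATAA. The E-box was searched in either of its common forms, CAGATG and the palindromic form CAGCTG. The homeodomain word was TAATTA and the AP-1 word was TGACTCA. The core of the CTCF site was searched as CNAGGGGGC and with the variants CNAGATGGC, CNAGGTGGC and CNAGAGGGC. The first is the part of the GHRL promoter region that lies before the start (chr3:10292948-10293230, minus strand), the only promoter of the group that the I-BET151 lists alone held. This part holds none of the words, and the 300-base window around the summit of the region, which runs past the start, holds a FOXA, a GATA and an E-box word.
GHRL region before the start: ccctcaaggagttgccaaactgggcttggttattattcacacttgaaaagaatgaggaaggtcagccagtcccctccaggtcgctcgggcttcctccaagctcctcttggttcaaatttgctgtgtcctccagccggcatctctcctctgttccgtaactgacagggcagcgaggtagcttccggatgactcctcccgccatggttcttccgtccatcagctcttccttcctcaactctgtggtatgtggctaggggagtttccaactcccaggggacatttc
The next sequences are 300 bases around the summit of the distal regions nearest to GCG (chr2:162153732-162154031, minus strand) and SST (chr3:187679623-187679922, minus strand) that only the I-BET151 lists held, and of the IAPP region in all 4 lists (chr12:21351087-21351386, plus strand).
GCG distal region: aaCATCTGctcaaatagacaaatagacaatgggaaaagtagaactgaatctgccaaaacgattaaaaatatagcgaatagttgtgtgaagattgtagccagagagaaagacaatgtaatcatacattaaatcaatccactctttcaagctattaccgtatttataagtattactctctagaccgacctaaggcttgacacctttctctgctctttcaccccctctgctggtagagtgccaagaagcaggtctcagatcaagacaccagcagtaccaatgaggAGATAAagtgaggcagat
SST distal region: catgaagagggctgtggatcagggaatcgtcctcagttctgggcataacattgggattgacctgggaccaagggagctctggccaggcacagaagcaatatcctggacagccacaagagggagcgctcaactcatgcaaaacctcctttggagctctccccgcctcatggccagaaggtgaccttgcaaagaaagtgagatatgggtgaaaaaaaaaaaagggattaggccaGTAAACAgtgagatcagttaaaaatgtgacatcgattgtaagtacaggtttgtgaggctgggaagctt
IAPP distal region: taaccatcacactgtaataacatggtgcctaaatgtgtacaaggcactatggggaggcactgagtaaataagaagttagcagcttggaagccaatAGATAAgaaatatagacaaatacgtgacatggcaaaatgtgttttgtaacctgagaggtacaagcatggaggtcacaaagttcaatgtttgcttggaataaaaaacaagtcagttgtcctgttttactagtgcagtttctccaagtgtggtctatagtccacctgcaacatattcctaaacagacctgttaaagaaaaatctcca
The last sequences are the 250 bases before the start in RefSeq (GRCh38.p14), where 9 of the 10 genes had an entry. They are INS (chr11:2161210-2161459, minus strand) and the 3 that hold a CRE, SST (chr3:187670395-187670644, minus strand), CHGA (chr14:92922900-92923149, plus strand) and PCSK1 (chr5:96433249-96433498, minus strand). No list covered the INS, SST or PCSK1 stretch, and a region overlapped that of CHGA.
INS promoter: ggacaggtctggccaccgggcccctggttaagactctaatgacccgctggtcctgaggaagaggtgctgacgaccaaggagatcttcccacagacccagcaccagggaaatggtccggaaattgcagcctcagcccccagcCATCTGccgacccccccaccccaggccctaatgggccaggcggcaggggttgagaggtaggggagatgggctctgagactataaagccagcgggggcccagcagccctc
SST promoter: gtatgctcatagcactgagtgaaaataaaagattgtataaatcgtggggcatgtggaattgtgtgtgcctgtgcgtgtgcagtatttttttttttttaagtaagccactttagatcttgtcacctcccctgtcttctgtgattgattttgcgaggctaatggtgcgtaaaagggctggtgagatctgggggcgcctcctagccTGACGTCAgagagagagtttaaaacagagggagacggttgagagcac
CHGA promoter: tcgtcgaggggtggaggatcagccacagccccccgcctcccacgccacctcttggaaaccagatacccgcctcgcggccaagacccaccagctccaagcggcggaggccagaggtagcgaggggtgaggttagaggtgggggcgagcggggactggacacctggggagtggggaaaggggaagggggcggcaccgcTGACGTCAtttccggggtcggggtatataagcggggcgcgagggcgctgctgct
PCSK1 promoter: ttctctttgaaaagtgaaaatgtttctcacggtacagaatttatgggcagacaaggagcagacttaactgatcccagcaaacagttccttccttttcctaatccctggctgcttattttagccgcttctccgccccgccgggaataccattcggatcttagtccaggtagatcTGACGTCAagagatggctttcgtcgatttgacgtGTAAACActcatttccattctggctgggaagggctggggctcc
Thus 3 of the 9 genes with an entry had the CRE letters directly before the start, and 1.77% of 27305 RefSeq promoters of the same 250 bases did. The other words were searched in the same stretches. An E-box was in 2 of the 9 (24.2% of all), the GATA word in 2 (9.37%), the FOXA word in 1 (2.98%) and the AP-1 word in 1 (4.16%). The homeodomain word (4.49%) and the CTCF word (7.41%) were in 0. A match is a description of the letters and not evidence of binding. In the 300-base windows around summits, promoter regions included, 0 of the 50 members and 0.45% of all regions held a CRE.

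The libraries differed in depth and in the height of their peaks, and both differences ran with the treatment, so that they cannot be told apart from it. The number of peaks ran the same way, by a small margin between DMSO replicate 1 and I-BET151 replicate 1, and cannot be told apart from the treatment either. The lists held 82568 and 38295 peaks for DMSO replicates 1 and 2, and 84995 and 111324 peaks for I-BET151 replicates 1 and 2. The reads behind them, estimated from the background level in each list, were 38.7 and 36.6 M for DMSO and 12.5 and 16.0 M for I-BET151. The weakest peak held 10 and 11 reads in the DMSO lists and 5 and 6 reads in the I-BET151 lists. The median fold enrichment, which is the pileup at the summit over the local background within a library, was 3.88 and 4.08 in DMSO and 5.56 and 6.03 in I-BET151. As a check of the labelled cell type, a promoter region was called for 8, 7, 9 and 9 of 10 PP marker genes in DMSO replicates 1 and 2 and I-BET151 replicates 1 and 2, NKX6-1 and SOX9 in every list, PDX1 in the I-BET151 lists only and PTF1A in none. The same counts were 6, 4, 7 and 6 of 12 endocrine transcription factor genes, 6, 4, 3 and 4 of 14 acinar genes, 3, 3, 3 and 4 of 6 pluripotency genes, 3, 2, 4 and 4 of 5 liver genes and 3, 3, 4 and 4 of 6 mesenchyme genes. Over all protein-coding genes the shares with a promoter region were 65.4, 59.6, 69.9 and 73.8% in the same order, so these counts alone do not identify a cell type. Whether a difference in the cell types listed had a part in the results below was not tested.

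The 50 member regions were unevenly held by the lists. DMSO replicate 1 called 21 of them, DMSO replicate 2 called 7, I-BET151 replicate 1 called 20 and I-BET151 replicate 2 called 30. As shares these were 42, 14, 40 and 60%, and over all 164301 regions the shares were 47.9, 22.9, 49.2 and 67.7%. The groups overlapped, because DMSO replicate 1 called more regions than I-BET151 replicate 1 (exact permutation test, two-sided, p = 0.667; with 2 libraries against 2 the smallest possible p is 0.33).

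**Figure D1:**
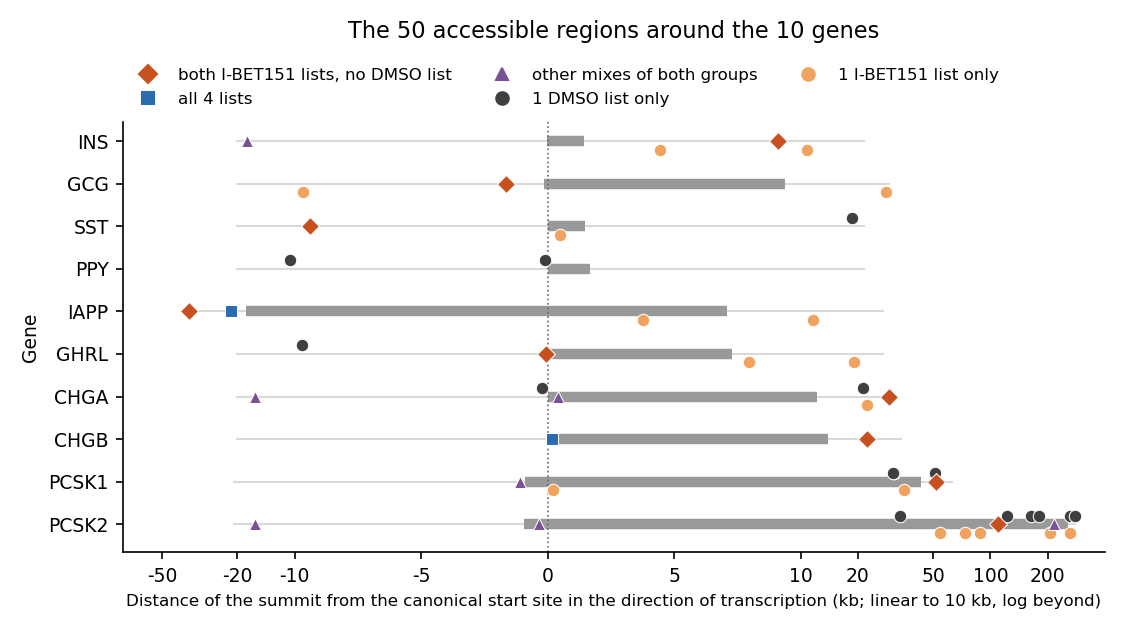
Position of each member region. The x axis is the distance of the summit from the canonical start site in kb, along the direction of transcription; thick bars are gene bodies and thin lines the 20 kb flanks. Symbols give the lists that called the region, with regions of a single list set slightly above (DMSO) or below (I-BET151) the line; 9 regions were in both I-BET151 lists alone and 2 in all 4 lists.

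Of the 50 regions, 9 were I-BET151-only, meaning that each I-BET151 list called them and neither DMSO list did (18%), and 17% of all regions in the genome had this pattern. There was 1 such region at each of 9 genes, all but PPY. No member region was DMSO-only by the reverse rule, as 2.37% of all regions were. Thus the members had I-BET151-only regions at about the rate of the genome. They stood lower in the share of regions called in all 4 lists, with 2 regions (4%, at CHGB and IAPP) beside 15.6% of all regions. Single-list regions were the largest class, with 32 of 50: 13 in DMSO replicate 1, 2 in DMSO replicate 2, 5 in I-BET151 replicate 1 and 12 in I-BET151 replicate 2. The other 7 mixed lists of both groups.

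**Figure D2:**
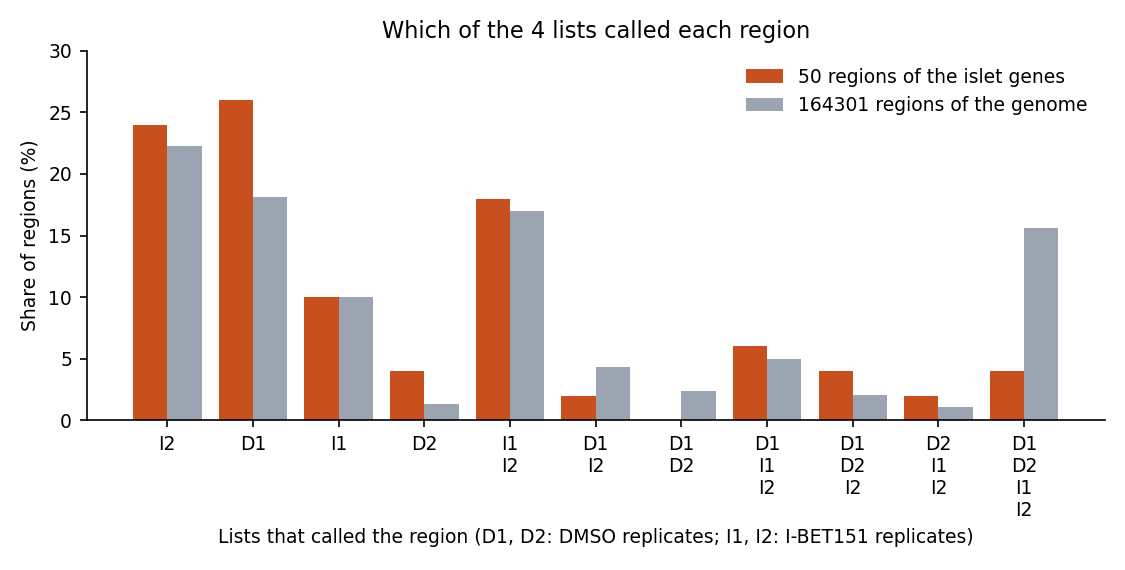
Share of regions (%) by the lists that called them, for the 50 member regions and all 164301 regions; patterns under 1% of all regions are left out. The members match the genome for regions in both I-BET151 lists alone (18 and 17%) and fall below it for regions in all 4 lists (4 and 15.6%).

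The count of I-BET151-only members depended on single libraries. It was 12 without DMSO replicate 1, 10 without DMSO replicate 2, 21 without I-BET151 replicate 1 and 14 without I-BET151 replicate 2, where all regions gave 22, 18, 39.3 and 27%. As shares of the members these were 24, 20, 42 and 28%. DMSO-only members numbered 2, 13, 0 and 2 in the same order (4, 26, 0 and 4%, where all regions gave 3.71, 20.4, 2.47 and 4.46%), the 13 resting on DMSO replicate 1 alone. When each list was cut to the 38295 strongest peaks by p-value, the length of the shortest, the members called were 9, 7, 7 and 5, with 2 of 19 in the I-BET151 lists alone (10.5%; all regions 9.19%) and 1 in the DMSO lists alone (5.26%; all regions 5.85%).

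Pooled over the windows, the members lay at 6.45 regions per 100 kb, and gene by gene the density ran from 3.71 (CHGB) to 11.5 (CHGA). The median over all genes, which is a value per gene, was 7.75, and INS, GHRL, CHGA and PCSK1 lay above it. The members were small, with a median width of 343 bp, where all regions had 405 bp. By position, 17 lay in an intron of their gene, 1 in an exon, 15 upstream and 17 downstream, and 15 also lay inside another gene. The 9 I-BET151-only members had a median width of 466 bp, where all regions of this pattern had 483 bp. These 9 lay mostly outside their genes, 4 upstream, 4 downstream and 1 in an intron. Over the 300-base windows, the FOXA word was in 6 of 50 members (12%; all regions 6.38%), the GATA word in 14 (28%; 20%), the homeodomain word in 8 (16%; 7.39%), an E-box in 20 (40%; 35.8%), the CTCF word in 4 (8%; 8.08%) and the AP-1 word in 1 (2%; 10.9%). These shares overlap between words, since a window can hold several.

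To give each gene a level in every library, a locus score was computed as the mean, over the regions in the window, of the percentile of the peak's fold enrichment within its own list, with 0 where the list had no peak. The mean score of the 10 genes was 21.2 in DMSO replicate 1, 5.51 in DMSO replicate 2, 23.3 in I-BET151 replicate 1 and 31.4 in I-BET151 replicate 2. Both I-BET151 libraries stood above both DMSO libraries, by a small margin over DMSO replicate 1. The means were 13.4 ± 11.1 and 27.4 ± 5.77 (SD, n = 2 each), a difference of 14 (exact permutation test, two-sided, p = 0.333, the smallest this design gives). Over 18865 protein-coding genes with a region the same scores were 31.4, 19.5, 33 and 40, a difference of 11.1. The 10 genes lay below the average of all genes in every library, and the median difference was 17.2 for them and 10.7 for all genes. Without DMSO replicate 2 the difference of the 10 genes was 6.11, and without DMSO replicate 1 it was 21.8. With equal numbers of peaks it was 5.08, and between the replicate 1 libraries alone it was 2.04. Where a list had to cover 50% of a region it was 13.5, and with percentiles by −log10 p it was 12.5. In the last 2 settings the groups overlapped (exact permutation test, two-sided, p = 0.667 in each). The difference stayed above 0 under every alternative.

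For 7 of the 10 genes (INS, GCG, SST, IAPP, GHRL, CHGB and PCSK1) each I-BET151 library scored above each DMSO library, and 51.3% of all genes had this order. For 0 of 10 it was lower in both, as for 2.96% of all genes. CHGA, PCSK2 and PPY overlapped. No gene can pass a threshold on its own here, since an exact test of 2 libraries against 2 gives at least p = 0.33. With lists of equal length the differences of INS, IAPP and PCSK1 turned to -1.56, -3.91 and -5.78. The differences of GCG, SST, GHRL and CHGB kept their sign under each alternative tried, but the order of the libraries did not always hold. It was lost for GCG, SST and GHRL where a list had to cover 50% of a region. With windows of 50 kb it was lost for GCG and SST, and with 5 kb for SST. CHGB kept the order in each setting that used all 4 libraries.

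**Figure D3:**
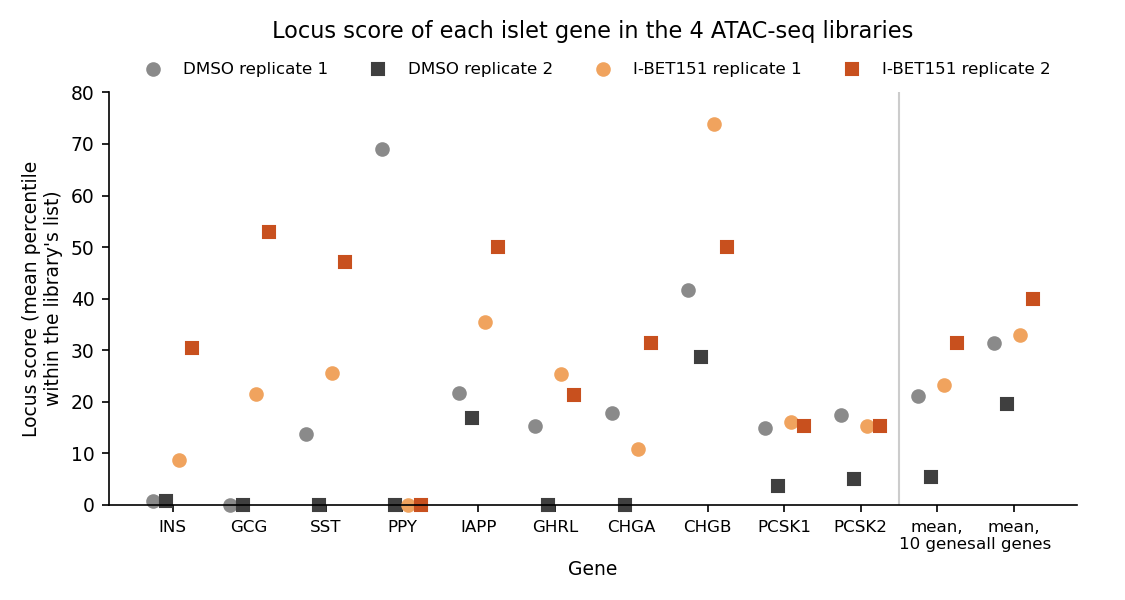
Locus score (mean percentile within the library's list, 0 where no peak was called) of each gene, and the mean over the 10 genes and over all genes, with 1 point per library. GCG was at 0 in both DMSO libraries and at 21.5 and 53 with I-BET151, PPY was above 0 in DMSO replicate 1 only, and the mean of the 10 genes lay below that of all genes in every library.

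INS, which encodes insulin (chr11:2159779-2161221, minus strand), had no region over its body in any list. The nearest peak to its start lay 17.7 kb away in both DMSO lists, 8.86 kb away in I-BET151 replicate 1 and 4.31 kb away in I-BET151 replicate 2. Its locus scores were 0.706 and 0.779 in DMSO and 8.69 and 30.5 in I-BET151. The region in both I-BET151 lists (chr11:2151558-2152348) lay 9.09 kb downstream, inside IGF2 and the INS-IGF2 readthrough gene. It had a fold enrichment of 4.76 from 19 reads (95% Poisson interval 11.4 to 29.7, counting error only) in replicate 1 and 5.06 from 31 reads in replicate 2. A region 17.9 kb upstream (chr11:2178928-2179512), toward the TH gene, was called in 3 lists, with a fold of 2.69 in both DMSO lists and 6.11 in I-BET151 replicate 2. Which of the genes at this locus these regions belong to was not tested.

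IAPP, the amyloid peptide released with insulin (chr12:21354959-21379980, plus strand), held the other region in all 4 lists. It lay at chr12:21351000-21351507, 3452 bp before the first annotated IAPP start and 21.7 kb before the canonical one, inside SLCO1A2. Its fold enrichment was 5.69 and 4.81 in DMSO and 8.48 and 11.6 in I-BET151, from 21, 19, 18 and 38 reads. All fold values were higher with I-BET151 (5.25 ± 0.624 against 10.1 ± 2.22, SD, n = 2 each), as at 89.7% of regions called in both groups. Yet the percentiles within the lists were 86.6, 67.8, 81 and 90.8 and overlapped between groups. In limma on the normal scores of the ranks, the shift of this region was 0.03 ± 0.383 (SE; adjusted p = 0.971). An upstream region called only in the I-BET151 lists (chr12:21336684-21337025, 36.1 kb before the canonical start) had folds of 5.2 and 5.17 from 9 and 12 reads. No list held a promoter region for IAPP.

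GCG, which encodes glucagon (chr2:162142882-162152404, minus strand), was without any DMSO peak in its window, and its scores were 0 and 0 in DMSO and 21.5 and 53 in I-BET151. The region in both I-BET151 lists (chr2:162153691-162154209) had its summit 1635 bp before the start and is the GCG sequence printed above. Its fold was 6.54 from 13 reads (interval 6.92 to 22.2) in replicate 1 and 9.16 from 24 reads (15.4 to 35.7) in replicate 2, or 1.04 and 1.5 RPM (reads scaled to the estimated depth in M). The weakest peaks called anywhere in the DMSO lists held 0.259 and 0.301 RPM. However, RPM ran higher with I-BET151 in general, by 1.9 (log2) at the median region of all 4 lists, so the values are not level between groups. Whether the GCG region lay below the floor of the DMSO lists was not tested. Both other GCG regions, 9.68 kb upstream and 28.2 kb downstream, were in I-BET151 replicate 2 alone, with folds of 7.15 and 4.04. GCG was the only one of the 10 genes with no DMSO peak within 20 kb, and its promoter itself was called in no list.

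SST, which encodes somatostatin (chr3:187668912-187670394, minus strand), had scores of 13.8 and 0 in DMSO and 25.6 and 47.1 in I-BET151. The widest member region of all (chr3:187678927-187680088, 1162 bp) lay 9.38 kb upstream of its start and was called in the I-BET151 lists alone, with folds of 7.83 and 7.51 from 17 and 24 reads. Its summit window holds the FOXA word. The promoter region (chr3:187669784-187670258, intron 1) was called in I-BET151 replicate 2 alone, with a fold of 8.55 from 23 reads, and did not reach the CRE before the start. The only DMSO peak was 18.7 kb downstream, in replicate 1, with a fold of 3.66.

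GHRL, which encodes ghrelin (chr3:10285666-10292947, minus strand), had the only I-BET151-only promoter of the group, a pattern of 6.7% of 19663 genes. The region (chr3:10292539-10293230) spanned the start, with its summit 49 bp before it. Its fold was 7.09 from 17 reads in replicate 1 and 9.3 from 40 reads in replicate 2, the highest read number of the 9 I-BET151-only regions. The locus scores were 15.4 and 0 in DMSO and 25.4 and 21.3 in I-BET151. The single DMSO peak in the window (fold 4.17, replicate 1) lay 9.72 kb upstream, inside SEC13.

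PPY, which encodes pancreatic polypeptide (chr17:43940804-43942476, minus strand), showed the opposite order, but from 1 library. Both of its regions were called in DMSO replicate 1 alone: the promoter (chr17:43942415-43942679, fold 4.2 from 21 reads) and a region 10.5 kb upstream in PYY (fold 4.81 from 24 reads). The upstream region lay 803 bp from a PYY start, so it is a promoter region of PYY. With promoters of neighbours left out the score difference of PPY was -31.2, and with them it was -34.6. The scores were 69.1 and 0 in DMSO and 0 and 0 in I-BET151, so the groups overlapped at 0. Without DMSO replicate 1 no PPY region was left to compare.

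CHGB, a granin of the granule matrix (chr20:5911510-5925353, plus strand), had the only promoter called in all 4 lists, a property of 57% of genes. The region spans the start, and its summit lies 182 bp after the start site, in intron 1. Fold enrichment was 5.33 and 4.33 in DMSO and 15.6 and 14.3 in I-BET151, and the reads at the summit were 20, 17, 37 and 48, although the I-BET151 libraries were shallower. The groups did not overlap on either scale, with folds of 4.83 ± 0.708 and 15 ± 0.882 (SD, n = 2 each) and 0.491 ± 0.0372 and 2.98 ± 0.0218 RPM. The percentile within the list went from 83.1 and 57.3 in DMSO to 99.2 and 96.9 in I-BET151. Of all regions called in both groups, 89.7% had this order by fold and 44.3% by percentile. In RPM, limma called 24614 of the 25627 regions in all 4 lists higher with I-BET151.

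The rank shift of the CHGB promoter was 1.60 ± 0.405 (SE) on the normal score scale, with adjusted p = 0.0355 in limma with Benjamini-Hochberg adjustment over 25627 regions shared by the 4 lists. In that test 3.41% of shared regions moved up and 1.96% moved down, and the CHGB promoter was 1 of the 2 member regions tested. The call was lost without DMSO replicate 1 (adjusted p = 0.126), DMSO replicate 2 (0.202) or I-BET151 replicate 1 (0.0828), and held without I-BET151 replicate 2 (0.000719), with a shift between 1.2 and 2.01. It was also lost with ranks by p-value (1.09, adjusted p = 0.183) and with the pileup in RPM centred within each library (0.68 on the log2 scale, adjusted p = 0.135). Uncentred pileup in RPM was higher by 2.61 (log2), where the median shared region was higher by 1.9. The second CHGB region (chr20:5933825-5934201), 22.5 kb downstream toward TRMT6, was in the I-BET151 lists alone, with folds of 5.45 and 3.18 from 10 and 7 reads.

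**Figure D4:**
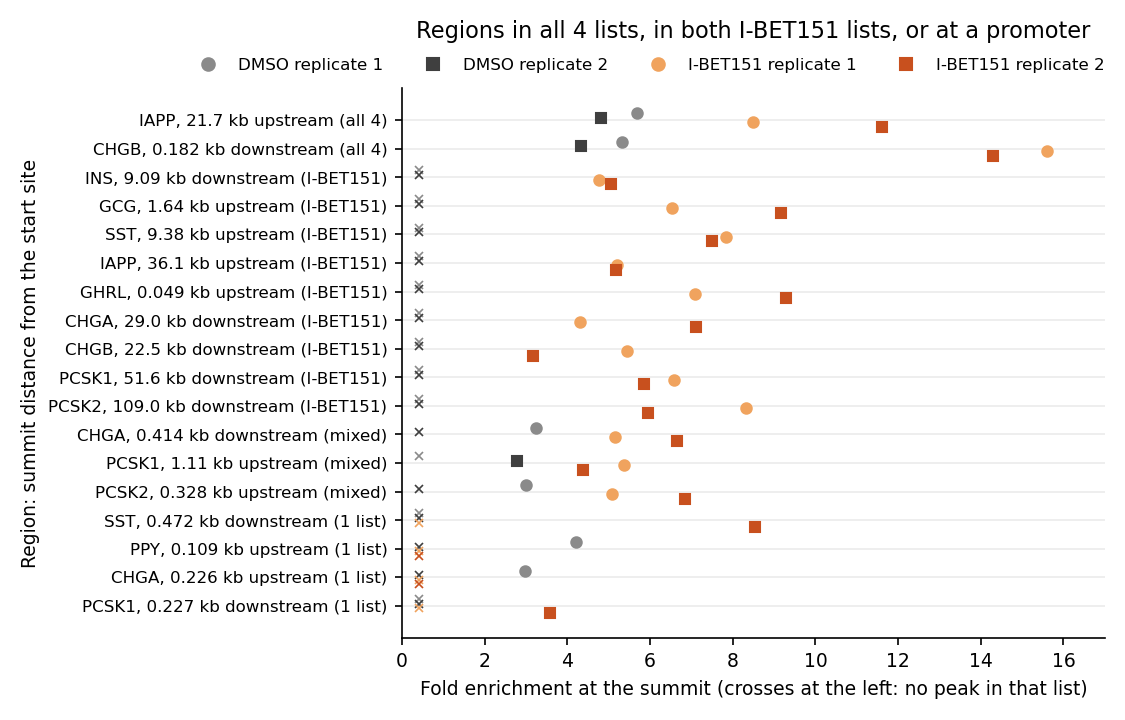
Fold enrichment at the summit in each library for the regions called in all 4 lists, in both I-BET151 lists alone, or at a promoter; crosses at the left mark lists without a peak, and the text in brackets gives the lists that called the region. The CHGB promoter stands at 14.3 and 15.6 with I-BET151 and at 4.33 and 5.33 with DMSO, and the 9 I-BET151-only regions lie between 3.18 and 9.3.

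CHGA, the other chromogranin (chr14:92923150-92935285, plus strand), had scores of 17.8 and 0 in DMSO and 10.8 and 31.5 in I-BET151, which overlapped. Its promoter region (chr14:92923156-92923749, summit in intron 1) was called in 3 lists, with folds of 3.24 in DMSO replicate 1, 5.15 in I-BET151 replicate 1 and 6.66 in I-BET151 replicate 2. A small neighbouring region before the start (chr14:92922875-92923094, fold 2.98) was in DMSO replicate 1 alone, and it ends short of the CRE printed above. The region in both I-BET151 lists alone (chr14:92952019-92952484) lay 29.0 kb downstream in ITPK1, with folds of 4.31 and 7.1 from 9 and 21 reads. A region 16.1 kb upstream had a fold of 4.08 in DMSO replicate 1 and 7.88 in I-BET151 replicate 2.

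PCSK1, the convertase that makes the first cuts in proinsulin (chr5:96390333-96434143, minus strand), had scores of 15 and 3.71 in DMSO and 16 and 15.3 in I-BET151, so that DMSO replicate 1 and the I-BET151 libraries nearly met. Its upstream promoter region (chr5:96434112-96434601) had folds of 2.78 in DMSO replicate 2, 5.36 in I-BET151 replicate 1 and 4.37 in I-BET151 replicate 2, and no peak in DMSO replicate 1. A region over exon 1 was in I-BET151 replicate 2 alone (fold 3.58 from 8 reads). The region in both I-BET151 lists alone (chr5:96381564-96381948) lay beyond the end of the gene, 51.6 kb from the start, with folds of 6.58 and 5.86 from 14 and 15 reads.

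PCSK2, the second convertase and the one that releases glucagon in α cells (chr20:17226107-17484578, plus strand), is the longest of the genes and had 15 regions, of which 8, 2, 5 and 7 were called in DMSO replicates 1 and 2 and I-BET151 replicates 1 and 2. Its scores were 17.5 and 5.05 in DMSO and 15.4 and 15.4 in I-BET151, which overlapped, and most of the regions were called in a single list. The promoter region (chr20:17226609-17227347) had folds of 2.99 in DMSO replicate 1, 5.08 in I-BET151 replicate 1 and 6.84 in I-BET151 replicate 2. The region in both I-BET151 lists alone (chr20:17336345-17336757) lay in intron 2, 109 kb from the start, with folds of 8.32 and 5.96 from 15 and 14 reads. A region 16.2 kb upstream had folds of 5.67 and 3.96 in DMSO and 4.77 in I-BET151 replicate 2, and it was the only member called in both groups whose folds overlapped.

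Across the genes, a promoter region (within 1 kb of a start) was called for 4 of 10 in DMSO replicate 1 (PPY, CHGA, CHGB and PCSK2), 2 in DMSO replicate 2 (CHGB and PCSK1), 5 in I-BET151 replicate 1 (GHRL, CHGA, CHGB, PCSK1 and PCSK2) and 6 in I-BET151 replicate 2 (these and SST). The shares over all genes were 65.4, 59.6, 69.9 and 73.8%. INS, GCG and IAPP had none in any list, and those of PPY and SST were called in 1 list each. The 4 granule genes, CHGA, CHGB, PCSK1 and PCSK2, each had a promoter region in both I-BET151 lists, and among the 6 hormone genes GHRL alone did. Of the 9 members called in at least 1 list of each group, 8 had every listed I-BET151 fold above every listed DMSO fold and 0 had every one below, where 89.7 and 2.68% of all regions called in both groups did. By percentile within the list, which takes out the higher median fold of the I-BET151 lists, 6 of the 9 had the first order, 1 had the reverse and 2 overlapped, where 44.3% of all such regions had the first order and 21.4% the reverse.

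The 26 companion genes of the granule and of regulated secretion (other granins, processing enzymes, sensors of glucose and the exocytosis machinery) were counted in the same way. Of their 308 regions, 59 (19.2%) were in the I-BET151 lists alone, 12 (3.9%) in the DMSO lists alone and 46 (14.9%) in all 4. Over all regions these shares were 17, 2.37 and 15.6%, and 4% of the members were in all 4. The median score difference was 13.8. Scores were higher in both I-BET151 libraries for 17 of 26 genes (65.4%) and lower for 0, beside 51.3 and 2.96% of all genes. Promoter regions were called for 12, 10, 17 and 22 of the 26, where 65.4, 59.6, 69.9 and 73.8% of all genes had one. An I-BET151-only promoter region was found for 6 of the 26, and for 6.7% of all genes. Among these 6, PCSK1N, an inhibitor of PCSK1, had scores of 0 and 0 in DMSO and 31.4 and 66.9 in I-BET151. STX1A, a syntaxin of granule fusion, had 30.5, 16.1, 41.7 and 45.3. VAMP2 had 28.1, 14, 27.1 and 25.2, which overlapped between groups. The rest of the 6 were SCG3, SYT13 and KCNJ11, where both I-BET151 scores lay above both DMSO scores. SCG2, a granin, was outside the 6, because DMSO replicate 1 also called its promoter, and had scores of 66.8, 0, 74.9 and 83. PYY, the hormone gene next to PPY, had 48.1, 12.2, 16.7 and 15.2, with the highest value in DMSO replicate 1 as at PPY. The windows of PYY and PPY overlap, and both PPY regions also enter the PYY score, so PYY is not a separate case. The 12 endocrine transcription factor genes had a median score difference of 18.7, the 10 PP marker genes 11.9 and the 11 acinar genes with a region 6.62, beside 10.7 for all genes.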

How the data were processed

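ATAC-seq was analysed in 4 libraries of MEL1-derived PPs (DMSO and I-BET151, 2 each), grouped by their labels. The authors used Bowtie2 (v2.2.5) for alignment to hg38, took out duplicate and mitochondrial reads, and ran MACS2 (v2.1.2) on each library separately. Each deposited list gives a fold enrichment for every summit, the −log10 p-value and −log10 q-value, and a display score, which was not used. The methods state a p-value of 1e-05, but the deposited lists reach a −log10 q of 1.30 to 1.33, that is a q-value of 0.05. Peaks were at least 200 bp long in the replicate 1 lists, 233 bp in DMSO replicate 2 and 256 bp in I-BET151 replicate 2, and MACS2 takes this minimum from its read extension.

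The pileup in whole reads was solved from fold and p (100% of peaks, within 0.001 of −log10 p), and depth came from the background level times the MACS2 genome size. Intervals on reads are exact Poisson. Calculations used Python 3.11.15, pandas 2.3.3, scipy 1.17.1 and pysam 0.24.0, and R 4.3.3 with limma 3.58.1. Ranks within each list were turned into normal scores, fitted with lmFit and eBayes and adjusted over all shared regions by the Benjamini-Hochberg method, and the fit was tested on simulated data. Single values were compared with exact permutation tests. Every promoter, shared and I-BET151-only region of the 10 genes was described. A further sequence is not reported here. Members and gene lists were chosen with earlier results of these data known. Alternatives were other thresholds, windows, overlaps and rankings, each library left out, and the replicate number as a block. The replicate numbers come from the labels only. Over the shared regions, the difference between DMSO replicates correlated with that between I-BET151 replicates at r = -0.14, and a crossed pairing was therefore added once the data had been seen.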

Additional observations from a re-analysis of the deposited data

How the results depend on the processing

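Shares in brackets are of the members, then of all regions. With a −log10 p of at least 10, 5 members were in the I-BET151 lists alone (26.3 and 23.3%), and no member was shared, so that no rank shift could be had. With equal numbers of peaks these were 2 (10.5 and 9.19%), with 1 in the DMSO lists alone (5.26 and 5.85%), the difference in members called per library turned to -2, and the score differences of INS, IAPP, CHGA, PCSK1 and PCSK2 to -1.56, -3.91, -4.36, -5.78 and -15.1. Windows of 5 kb gave 3 I-BET151-only members (10.3 and 17%), and 50 kb gave 15 (13.6 and 17%), with 2 DMSO-only (1.82 and 2.37%). Where a list had to cover 50% of a region, 6 were I-BET151-only (12 and 16.5%) and 0 were in all 4 lists. The p-value of the methods gave 10 of 45 (22.2 and 18.1%). Leaving out each library in turn gave 10 to 21 I-BET151-only and 0 to 13 DMSO-only members, with PCSK2 between -2.08 and 10.3, below 0 without DMSO replicate 2. The cause of these changes was not tested.

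The replicate numbers mark no shared culture or day in the labels. With the replicate block, that is within pairs, pair 1 gave 15 I-BET151-only (30 and 28.1%) and 16 DMSO-only members (32 and 26.8%), a difference in members called of -1, and pair 2 gave 25 (50 and 48.6%) and 2 (4 and 3.84%), while CHGA and PCSK2 turned to -6.95 and -2.08 in pair 1. With the block in limma, 985 shared regions moved up and 652 down (875 and 503 without it), and the CHGB promoter stayed called (adjusted p = 0.0182). The crossed pairing gave 1985 and 1567.

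Of the 2 shared members, 0 were called with ranks by −log10 p or with centred pileup, 2 with pileup in RPM, and 0 to 1 with a library left out. The IAPP shift turned to -0.0733 by −log10 p and -0.125 with centred pileup, and ran from -0.167 to 0.232 with a library left out (below 0 without DMSO replicate 2 or I-BET151 replicate 2), uncalled each time. Over all shared regions, calls up and down were 8 and 27 by −log10 p, 24614 and 16 with pileup in RPM, and 174 and 1188 when centred. Peaks of 7 to 48 reads limit each fold, and 2 libraries a group limit every test.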

Other observations

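The single-list regions of the 10 genes ranged widely within each list. In DMSO replicate 1 the 13 regions had folds of 2.84 to 4.81 (median 3.62) from 13 to 30 reads, at percentiles of 5.93 to 75.9. The 2 regions of DMSO replicate 2 had folds of 3.27 and 3.47 (percentiles 21.1 and 29), and the 5 of I-BET151 replicate 1 had folds of 3.36 to 5.05 (percentiles 1.69 to 39.5). In I-BET151 replicate 2 the 12 regions had folds of 3.28 to 8.55 (median 4.38) from 8 to 26 reads, at percentiles of 4.74 to 75.2, with the highest at the SST promoter. The next highest was a region 11.6 kb downstream of the canonical IAPP start, inside SLCO1A2, with a fold of 8.35 from 22 reads and a GATA word in its window. At PCSK2 the single-list regions were spread over introns 1, 2, 5 and 7 and the downstream flank.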
